A study of Homo sapiens with 6 samples.

Results

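The genes of the integrated stress response that act with or under the transcription factor ATF4 were followed in ribosome footprints of WPMY-1, a human cell line grown from the stroma of the prostate and made immortal in culture. They are 10 genes, listed by Ensembl ID with no measured value in the rule, out of the 62492 gene IDs in the count table. Other results of these data were known when the list was drawn up. The genes are ATF4, DDIT3, PPP1R15A, TRIB3, ASNS, PSAT1, PHGDH, SESN2, CHAC1 and SLC7A11, and each matched 1 row of the table. The symbols come from the list that names the IDs, since the table itself holds IDs alone. In 3 libraries the cells carried a control short hairpin RNA and are labelled as wild type for TRMT61A. In the other 3 the cells carried a hairpin against TRMT61A, which encodes the catalytic subunit of the enzyme that places 1-methyladenosine in tRNA. Both groups are 1 cell line with 1 kind of hairpin construct each, and no treatment that would provoke stress is named in the labels. Nothing states that replicate libraries stem from different cultures, so p-values measure only how far these libraries spread, and that spread may be technical. The level of TRMT61A and the markers of stromal, epithelial, leukocyte and endothelial cells were not analysed here, because their IDs are not paired with symbols.

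The integrated stress response begins when one of several kinases phosphorylates the initiation factor eIF2, which slows translation of most mRNAs. A few mRNAs with short upstream open reading frames, ATF4 among them, are then translated better, and the ATF4 protein switches on genes for amino acid supply, redox balance and feedback. Ribosome profiling sequences the mRNA fragments that ribosomes shield from nuclease, so a count per gene rises with the amount of mRNA and with the density of ribosomes on it. These counts do not separate the 2 quantities, and they do not separate footprints on an upstream open reading frame from those on the main coding sequence. That matters for ATF4, DDIT3, PPP1R15A and CHAC1, whose mRNAs are known to carry upstream open reading frames. In a bulk lysate, a change in every cell and a change in the share of cells that express a gene also cannot be told apart.

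ATF4 binds DNA as a dimer with C/EBP proteins at a composite element whose core reads TGATGNAA. This core was searched on both strands of RefSeq promoter windows (GRCh38.p14), each running from 250 bases before a start site to 50 bases after it. Windows were found for 9 of the 10 genes, 14 windows in all because some genes have several start sites, and SLC7A11 had none in the set used here. A match lay in 2 of these 14 windows, 1 of ASNS and 1 of CHAC1. Windows of the same gene can overlap. The core was present in 3.62% of all 35116 windows. The matches are shown because they are the letters ATF4 is known to read; a match is a description and not a measured binding site. The core is in capitals, and each sequence is read in the direction in which the core runs forward.
ASNS: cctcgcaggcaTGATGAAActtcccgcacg
CHAC1: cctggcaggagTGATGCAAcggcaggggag
The ASNS sequence is chr7:97872458-97872487 on the minus strand, with the core starting 68 bases upstream of the start site on the gene's own strand. The CHAC1 sequence is chr15:40953251-40953280 on the minus strand, opposite to the gene, with the near end of the core 202 bases upstream of the start site. For the other genes with a window, these letters were not in that window.

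Control libraries held 6771455 to 8008896 counts and knockdown libraries 12704354 to 17752247, so the mean depth was 1.98 times as high in the knockdown group. The 10 genes together drew 959, 1150 and 1216 counts in control libraries 1 to 3 and 3741, 2145 and 3085 in knockdown libraries 1 to 3. Levels below are CPM, the counts per 1000000 counts of a library, scaled with TMM, which sets the bulk of features equal between libraries. Scaled by library size alone, the median log2 fold change over all features moved from -0.0047 to -0.30. The number of features called higher and lower in the knockdown moved from 173 and 191 to 63 and 334. Levels are not divided by length, so they are compared between libraries and not between genes.

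TRIB3 rose in the knockdown, and of the 9 tested genes it was the only one that passed the adjusted threshold of 0.05 in edgeR. Across all 11653 tested features 3.12% passed, with 1.48% higher and 1.64% lower in the knockdown. Of the 9 genes 0 passed as lower in edgeR, and DESeq2 and limma voom also gave 0. At an unadjusted p under 0.05 there were 0 lower too, against 8.38% of all tested features. By the same unadjusted measure 4 of the 9 were higher, TRIB3, PPP1R15A, PHGDH and PSAT1, against 7.95% of all tested features. With TMM scaling the 3 knockdown libraries lay wholly above the 3 control libraries for 5 of the 9, these 4 and CHAC1, against 12.2% of all tested features. With library size alone the same was true of 2 of the 9, TRIB3 and CHAC1, against 6.09% of all tested features. The median log2 fold change of the 9 genes was 0.74 and that of all tested features -0.0047. No p-value is attached to these counts. ASNS had too few counts to be tested.

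**Figure D1:**
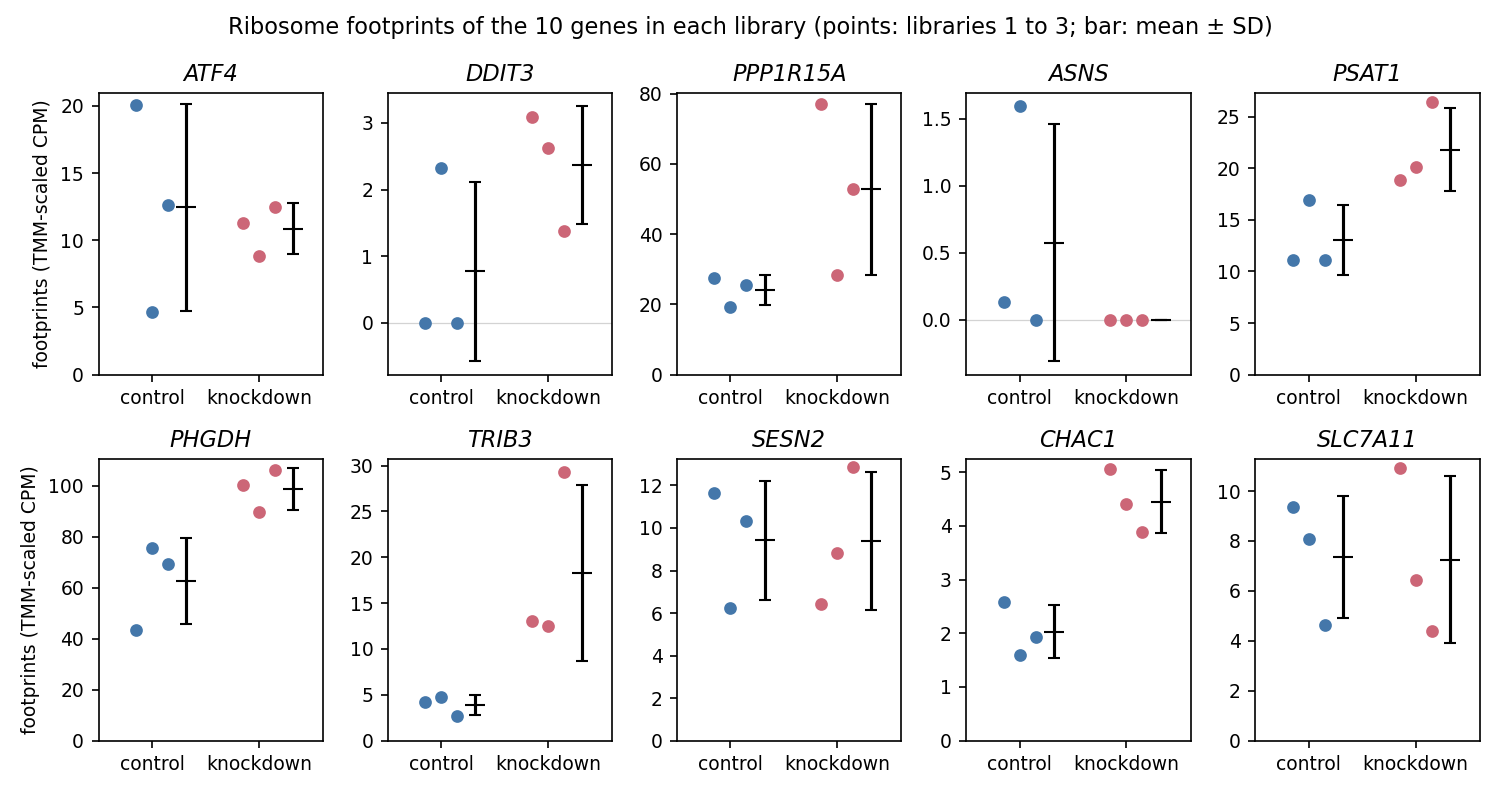
Ribosome footprints of the 10 genes in TMM-scaled CPM (vertical axis, a scale of its own for each gene) in the 3 control and 3 knockdown libraries, shown left to right in the order of their numbers. Points are libraries and the bar is the mean ± SD of the group. TRIB3 spans 2.72 to 4.78 in control and 12.5 to 29.3 in knockdown, while the groups of ATF4, SESN2 and SLC7A11 overlap.

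The 2 transcription factors of the set did not pass the test. ATF4 (ENSG00000128272.14_4), the central transcription factor of the response, stood at 20.1, 4.66 and 12.6 CPM in control libraries 1 to 3 and at 11.3, 8.81 and 12.5 CPM in knockdown libraries 1 to 3. The control libraries held both the highest and the lowest value, and every knockdown library lay between them. The means were 12.4 ± 7.7 CPM in control and 10.9 ± 1.9 CPM in knockdown (SD, n = 3 each). This is a log2 fold change of -0.19 ± 0.49 (SE), with a 95% interval from -1.27 to 0.88 (edgeR, adjusted p = 0.916). This interval leaves room for a rise or a fall of moderate size. The control counts were 148, 38 and 111, where counting error alone would give a coefficient of variation of about 10.1%, and the measured one was 62.0%. Its size and sign rested on single libraries: without control library 1 the log2 fold change was 0.33, and without control library 2 it was -0.59.

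DDIT3 (ENSG00000175197.12_6) encodes CHOP, a transcription factor induced by ATF4 that is linked to cell death under lasting stress. Its counts were 0, 19 and 0 in control libraries 1 to 3 and 47, 31 and 17 in knockdown libraries 1 to 3. Every knockdown library thus held DDIT3 footprints, while they appeared in 1 of the 3 control libraries. At a count of 0 the true level may reach 3 counts, or 0.407 CPM in control library 1 and 0.34 CPM in control library 3. The scaled levels were 0, 2.33 and 0 CPM in control and 3.09, 2.63 and 1.38 CPM in knockdown. The groups overlapped, because control library 2 lay above knockdown library 3. Its log2 fold change was 1.59 ± 1.66 (SE), with a 95% interval from -2.02 to 5.20 (edgeR, adjusted p = 0.734). If control library 2 is left out, DDIT3 is at 0 in the whole control group and the fitted 7.72 depends on the prior count. That fit gave adjusted p = 0.264 in edgeR.

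The 2 feedback regulators are TRIB3 and PPP1R15A. TRIB3 had the largest fitted change of the 9 tested genes in the main edgeR fit. DDIT3 had a larger one in limma voom (3.49 against 2.14) and in edgeR with a block for the replicate number (3.97 against 2.12). The same held without control library 2 (7.72 against 2.40) or without knockdown library 3 (1.87 against 1.71). TRIB3 (ENSG00000101255.11_5) is a pseudokinase induced by ATF4 and CHOP that binds the kinase AKT and dampens ATF4 activity. It stood at 4.20, 4.78 and 2.72 CPM in control libraries 1 to 3, from 31, 39 and 24 counts. In knockdown libraries 1 to 3 it stood at 13.0, 12.5 and 29.3 CPM, from 198, 147 and 362 counts. Every knockdown library thus lay well above every control library, and knockdown library 3 lay far above the other two. The means were 3.90 ± 1.06 CPM in control and 18.3 ± 9.6 CPM in knockdown (SD, n = 3 each), a ratio of 4.68. In edgeR the log2 fold change was 2.23 ± 0.48 (SE), with a 95% interval from 1.18 to 3.27 and adjusted p = 0.0308. Of all tested features, 146 had a log2 fold change at least as high.

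The call for TRIB3 was near the threshold. It was made in DESeq2 (log2 fold change 2.24, adjusted p = 0.00160) and missed in limma voom (2.14, adjusted p = 0.106) and in edgeR with library size alone (1.97, adjusted p = 0.0621). It held without knockdown library 1 (adjusted p = 0.0471 in edgeR). It was lost without control library 1, 2 or 3, with adjusted p = 0.0945, 0.111 and 0.139, and without knockdown library 2 or 3, with adjusted p = 0.0680 and 0.145 in edgeR. The log2 fold change in these 6 fits ran from 1.71, without knockdown library 3, to 2.44, without knockdown library 2. A ratio of counts within a library needs no scaling between libraries. TRIB3 gave 0.0969, 0.0634 and 0.0393 counts per count of PHGDH in control libraries 1 to 3 and 0.130, 0.139 and 0.276 in knockdown libraries 1 to 3. The groups did not overlap on that ratio or on TRIB3 per count of ATF4 (control at most 1.03, knockdown at least 1.15). They overlapped on PPP1R15A per count of PHGDH, at 0.634 in control library 1 and 0.315 in knockdown library 2. They also overlapped on PSAT1 per count of PHGDH, at 0.256 in control library 1 and 0.188 in knockdown library 1. These ratios were chosen after the values had been seen, and with TMM PHGDH itself lay higher in the knockdown.

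**Figure D2:**
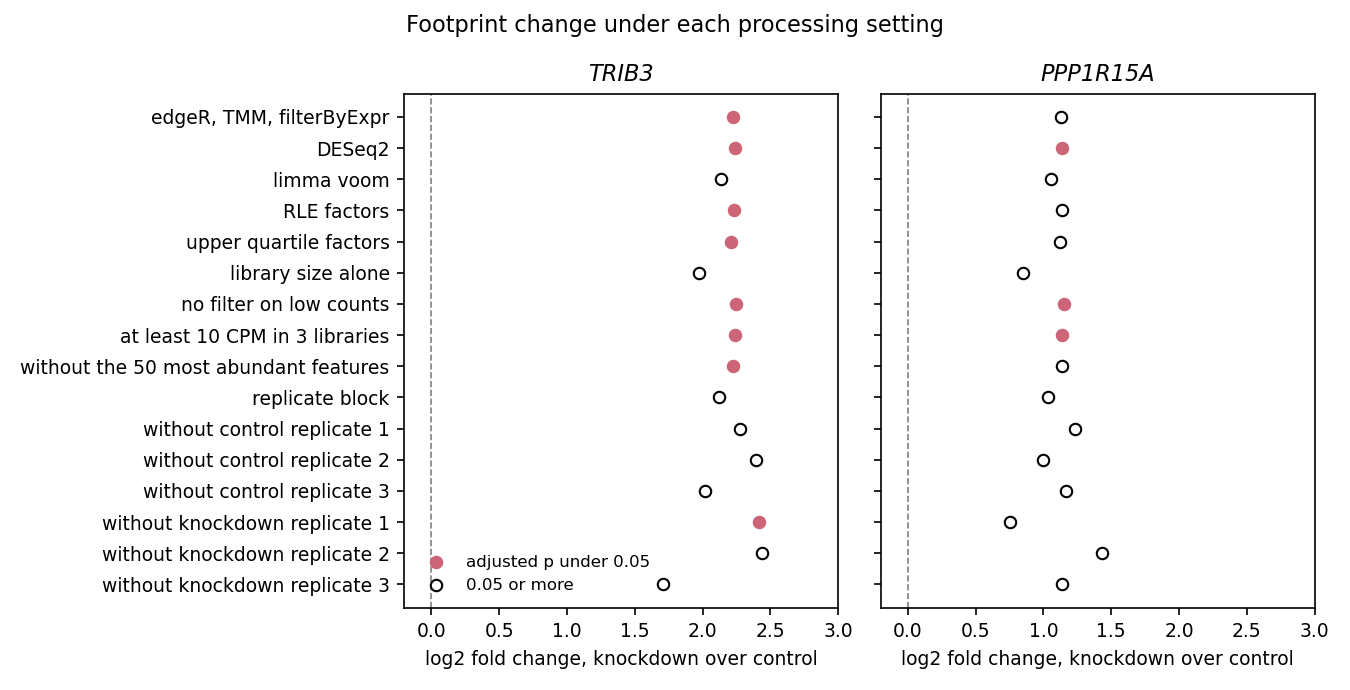
Log2 fold change of TRIB3 and PPP1R15A, knockdown over control (horizontal axis), under each processing setting (vertical axis, the settings that leave out a library at the bottom). Filled points have an adjusted p under 0.05 and open points do not. TRIB3 stays between 1.71 and 2.44 while its call comes and goes, and PPP1R15A ranges from 0.75 to 1.43.

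PPP1R15A (ENSG00000087074.8_5) encodes GADD34, the regulatory subunit that brings protein phosphatase 1 to eIF2 and so ends the response. It stood at 27.5, 19.4 and 25.4 CPM in control libraries 1 to 3 and at 77.1, 28.3 and 52.9 CPM in knockdown libraries 1 to 3. With TMM the groups did not overlap, but knockdown library 2 lay just above control library 1, while knockdown library 1 was 2.72 times knockdown library 2. With library size alone they overlapped, since knockdown library 2 stood at 25.1 CPM and control library 3 at 30.6 CPM. The means with TMM were 24.1 ± 4.2 CPM and 52.8 ± 24.4 CPM (SD, n = 3 each). In edgeR the log2 fold change was 1.13 ± 0.35 (SE), with a 95% interval from 0.38 to 1.88, unadjusted p = 0.0066 and adjusted p = 0.108. It passed in DESeq2 (adjusted p = 0.0371) and in edgeR with at least 10 CPM in 3 libraries (0.0445) or with no filter on low counts (0.00853). These were 3 of the 15 alternatives. It was missed in limma voom (adjusted p = 0.144) and in edgeR with library size alone (0.246) or the replicate block (0.101). It was also missed in edgeR whichever library was left out (adjusted p from 0.0685 to 0.360). Without knockdown library 1 the log2 fold change was 0.75 (edgeR, adjusted p = 0.319).

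The enzymes of serine synthesis lay higher in all 3 knockdown libraries with TMM scaling but not with library size alone, and neither passed the adjusted test. PHGDH (ENSG00000092621.12_5) catalyses the first committed step from a glycolytic intermediate towards serine. It stood at 43.4, 75.4 and 69.2 CPM in control libraries 1 to 3 and at 100.2, 89.7 and 106 CPM in knockdown libraries 1 to 3. The means were 62.7 ± 17.0 CPM and 98.7 ± 8.4 CPM (SD, n = 3 each), a ratio of 1.58. The knockdown libraries were close to each other, and control library 1 stood below the other controls. The fitted log2 difference was 0.66 ± 0.25 (SE), with a 95% interval from 0.11 to 1.20 (edgeR, unadjusted p = 0.0230, adjusted p = 0.207).

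PSAT1 (ENSG00000135069.14_4) catalyses the transamination that follows PHGDH. It stood at 11.1, 16.9 and 11.1 CPM in control libraries 1 to 3 and at 18.9, 20.2 and 26.4 CPM in knockdown libraries 1 to 3. Every knockdown library lay above control library 2, the highest control. The means were 13.1 ± 3.3 CPM and 21.8 ± 4.0 CPM (SD, n = 3 each), a ratio of 1.67. Its log2 fold change was 0.74 ± 0.33 (SE), with a 95% interval from 0.016 to 1.46 (edgeR, unadjusted p = 0.0459, adjusted p = 0.293). With library size alone the log2 fold changes of PHGDH and PSAT1 were 0.33 and 0.44, which is 0.63 and 0.74 above the median of all features in that fit. The groups of both genes then overlapped: control library 2 stood at 90.8 CPM for PHGDH and 20.4 CPM for PSAT1, above knockdown library 2 at 79.7 and 17.9 CPM.

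ASNS (ENSG00000070669.17_6) encodes asparagine synthetase, the enzyme that makes asparagine from aspartate and glutamine and one of the 2 genes whose promoter window held the TGATGNAA core. Its counts were 1, 13 and 0 in control libraries 1 to 3 and 0 in each knockdown library. The 13 counts of control library 2 amounted to 1.59 CPM and were all but 1 of the ASNS counts. The upper limit of 3 counts for a count of 0 was 0.197, 0.254 and 0.243 CPM in knockdown libraries 1 to 3. ASNS did not pass the filter on low counts, and no fold is given, since 2 of the 3 control libraries were at or under 3 counts as well. In edgeR with no filter its adjusted p was 0.418. Footprints on ASNS were therefore too few in both groups for a comparison.

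CHAC1 and SLC7A11 act on glutathione and on the cystine needed to make it. CHAC1 (ENSG00000128965.13_6), an enzyme that breaks glutathione down, stood at 2.58, 1.59 and 1.93 CPM in control libraries 1 to 3 and at 5.06, 4.41 and 3.89 CPM in knockdown libraries 1 to 3. The groups did not overlap, with TMM or with library size alone, and the ratio of the means was 2.19. These levels rest on 13 to 19 counts per control library and 48 to 77 per knockdown library. The fitted log2 fold change was 1.13 ± 0.80 (SE), with a 95% interval from -0.62 to 2.88 (edgeR, adjusted p = 0.569). The spread measured within the groups was close to counting error, with a coefficient of variation of 24.6% in control against about 24.7% from counting and 13.2% in knockdown against about 13.0%. Each of these coefficients rests on 3 libraries. The standard error of edgeR also draws on the spread of other features of like abundance. The part of this in the wide interval was not tested. CHAC1 was not called in DESeq2 (adjusted p = 0.471) or limma voom (adjusted p = 0.523) either.

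SLC7A11 (ENSG00000151012.13_5), the subunit of the cystine and glutamate exchanger that carries the transport, stood at 9.36, 8.09 and 4.65 CPM in control libraries 1 to 3 and at 10.9, 6.44 and 4.38 CPM in knockdown libraries 1 to 3. The groups overlapped over most of their range. The means were 7.37 ± 2.44 CPM and 7.24 ± 3.34 CPM (SD, n = 3 each). This gave a log2 fold change of -0.021 ± 0.54 (SE), with a 95% interval from -1.20 to 1.16 (edgeR, adjusted p = 0.995).

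SESN2 (ENSG00000130766.5_4) encodes a sestrin, a leucine-binding protein that restrains the growth regulator mTORC1 when amino acids are short. It stood at 11.7, 6.25 and 10.3 CPM in control libraries 1 to 3 and at 6.44, 8.81 and 12.9 CPM in knockdown libraries 1 to 3. The groups covered nearly the same range. The means were 9.41 ± 2.82 CPM and 9.38 ± 3.26 CPM (SD, n = 3 each). The fitted log2 fold change was -0.0055 ± 0.46 (SE), with a 95% interval from -1.01 to 1.00 (edgeR, adjusted p = 0.997). For SESN2, as for SLC7A11, a change of up to about 2-fold in either direction lies inside the interval.

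**Figure D3:**
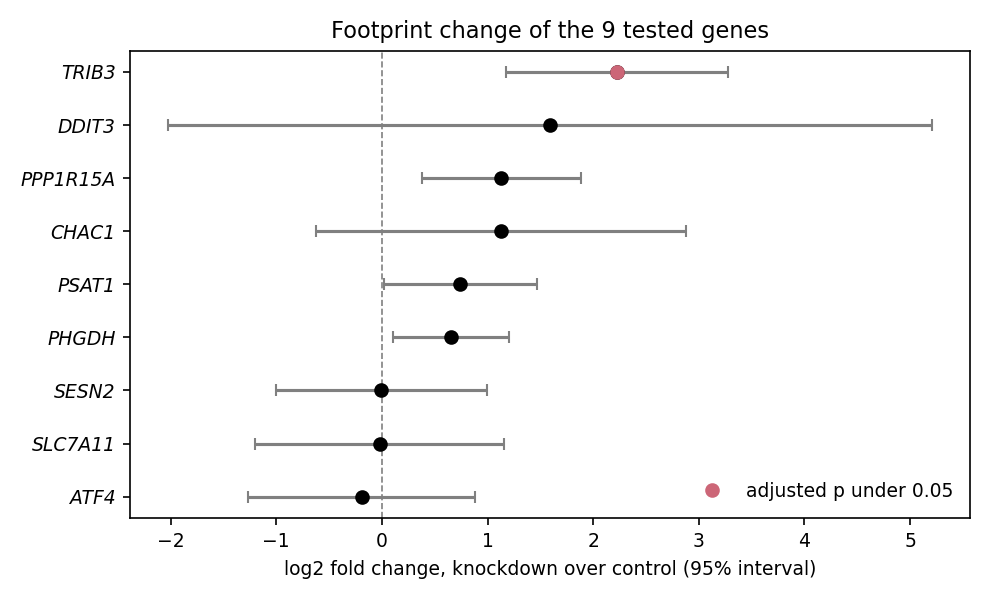
Log2 fold change of footprints, knockdown over control (horizontal axis), of the 9 tested genes, ordered by size, with 95% intervals from the edgeR fit. TRIB3, the filled red point, has an adjusted p of 0.0308, and the interval of DDIT3 runs from -2.02 to 5.20.

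The sign of the change was the same under every setting tried for 6 of the 9 genes and not for the other 3. TRIB3, PPP1R15A, DDIT3, CHAC1, PSAT1 and PHGDH had positive log2 fold changes in each fit that tested them. For the 5 whose groups did not overlap with TMM, this was fixed in large part by the values themselves. ATF4, SESN2 and SLC7A11 changed sign between settings. All settings draw on the same 6 libraries. In the main edgeR fit 49.7% of all tested features had a positive log2 fold change. The share of all features that kept their sign under every setting was not computed. The summed level of all 10 genes was 130.0, 141 and 138 CPM in control libraries 1 to 3 and 246, 182 and 249.9 CPM in knockdown libraries 1 to 3. Without PHGDH, which gave 33.4% to 53.5% of the sum, it was 65.6 to 86.7 CPM in control and 92.0 to 146 CPM in knockdown. With TMM the groups did not overlap on either sum, and knockdown library 2 was the lowest of its group on both. With library size alone both sums overlapped, at 161 CPM in knockdown library 2 against 169.8 CPM in control library 2, and without PHGDH at 81.7 CPM against 82.7 CPM in control library 3.

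**Figure D4:**
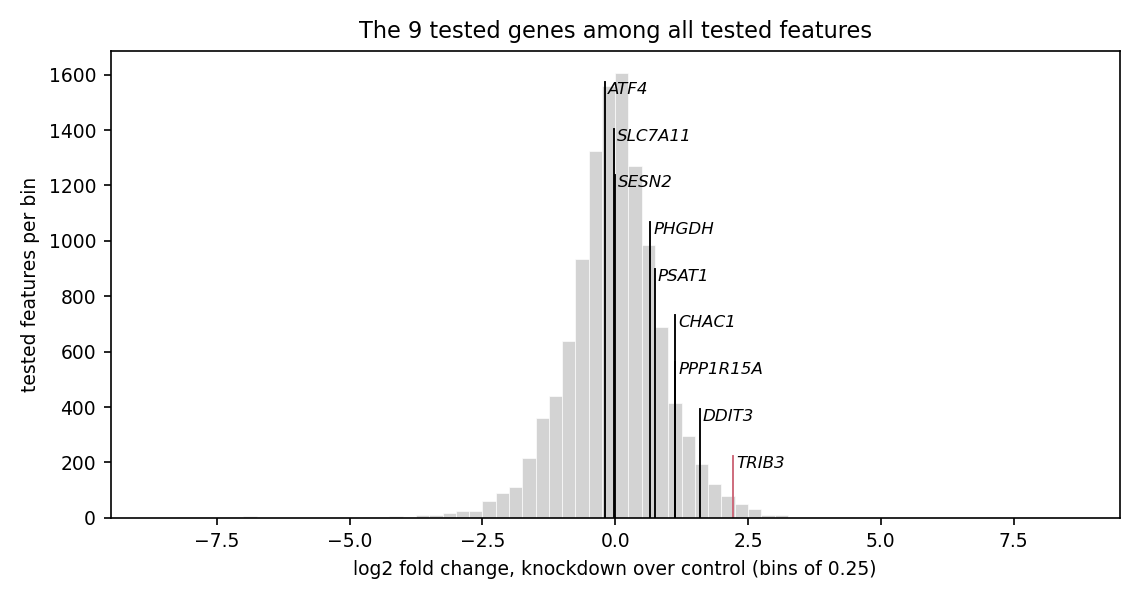
Number of tested features (vertical axis) by log2 fold change, knockdown over control (horizontal axis, bins of 0.25), with a line at the value of each of the 9 tested genes. The line heights carry no value and only keep the names apart. ATF4, SLC7A11 and SESN2 sit at the middle of the distribution, and TRIB3 at 2.23 sits in its upper tail.

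The pattern of ATF4 over the 6 libraries was compared with that of every other feature with a mean of at least 10 CPM, 5903 in all. Likeness was the mean absolute difference of centred log2(CPM + 1) values over the 6 libraries, where a small value means a like pattern. The nearest features were ENSG00000112837.17_8, at 0.12, and ENSG00000100908.14_5, at 0.16. Both were lowest in control library 2 and highest in control library 1, as ATF4 was. Their log2 fold changes were 0.015 and 0.077 with adjusted p = 0.995 and 0.965 in edgeR. Since both features were picked for likeness over these same libraries, the shared order and small fold changes follow from the choice. They are not a separate result. Among the other tested genes of the set, SESN2 was nearest to ATF4, at 0.35, and DDIT3 was farthest, at 1.15. TRIB3 stood at 1.07. The floor of 10 CPM was not applied to the genes of the set. DDIT3 had counts of 0 in control libraries 1 and 3, so its distance depends on the 1 added to CPM.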

How the data were processed

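Ribosome footprints were analysed in 6 libraries, 3 control and 3 TRMT61A knockdown. The deposited table holds raw read counts per Ensembl gene ID, per the file headers and values. Reads went through fastp and Bowtie 1.3.1 on hg38, per the submitters' processing notes. The counting tool and annotation are not given in the sources used. The suffixes on the gene IDs have the form GENCODE uses for annotation lifted to an earlier genome build, which the notes do not explain. Any effect of this on the counts was not tested. Control columns name a vector and were matched by assay name and replicate number. The 6 further per-sample columns belong to none of the samples described here and were not used, so no translational efficiency was computed.

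Counts were fitted in R 4.3.3 with edgeR 4.0.16 (filterByExpr, TMM, two-sided quasi-likelihood F-test) over 11653 features. They held 99.8% of counts, and Benjamini-Hochberg adjustment ran over all of them, with a threshold of 0.05. SE is the log2 fold change divided by the square root of F, and 95% intervals use the fit's degrees of freedom. The fit was tested on simulated data. Limits on counts of 0 cover counting error only, the intervals include the spread between libraries, and PCR copies were not removed by any identifier. Alternatives used DESeq2 1.42.0, limma 3.58.1 with voom, other scalings and filters, the replicate block and each library left out. The genes and lists were chosen with earlier results of these data known, although no measured value enters the rule. Overlap of the groups with library size alone was added after seeing the data. All 10 genes are named, plus the 2 features most like ATF4. The further pathway lists and cell type markers, listed by symbol, and levels per coding length were not analysed here.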

Additional observations from a re-analysis of the deposited data

How the results depend on the processing

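With each of the 15 alternatives the tested genes gave between 0 and 2 calls, all of them higher in the knockdown. The tested genes were 9, but 10 with no filter on low counts and 6 with at least 10 CPM in 3 libraries. Percentages in brackets are the share of the features tested in that fit that were called in either direction. Features called higher were 366 of 758 in DESeq2, 358 of 735 without the filter and 287 of 602 with at least 10 CPM. They were 181 of 443 in limma voom, 63 of 397 with library size alone and 99 of 208 with the replicate block. There were 2 calls, TRIB3 and PPP1R15A, in DESeq2 (6.50%) and without a filter on low counts (3.58%). The same 2 were called with at least 10 CPM in 3 libraries (9.85%, 6 of the genes tested). There were 0 in limma voom (3.80%, 443 features), with library size alone (3.41%, 397 features) and with the replicate block (1.78%), and 0 to 1 with 1 library left out (0.371% to 1.44%). Over all features the count moved from 364 to 758 in DESeq2, 735 without the filter, 602 with at least 10 CPM in 3 libraries and 208 with the replicate block. It was 47 to 171 with 1 library left out, where each fit has fewer samples. The causes of the other moves were not tested. With the replicate block, TRIB3 stood at 2.12 on the log2 scale (edgeR, adjusted p = 0.0838) and DDIT3 at 3.97 (0.515). The deviations of same-numbered libraries from their group means correlated at -0.0017, -0.021 and 0.060 over all tested features. No shared pattern was seen by this measure. It cannot settle whether same-numbered libraries were handled together, and the labels do not say.

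Genes near 0 changed sign. ATF4 came to 0.050 in limma voom, 0.0073 with the replicate block and -0.59 to 0.33 with 1 library left out. SESN2 came to 0.0030 in DESeq2, 0.0030 with RLE factors, 0.011 without the filter, 0.0052 with at least 10 CPM in 3 libraries and -0.30 to 0.21 with 1 library left out. SLC7A11 came to 0.0043 in limma voom, 0.00015 without the filter and -0.44 to 0.25 with 1 library left out. No alternative made a call for these 3 genes. In DESeq2 the adjusted p of DDIT3 was not defined. DDIT3, CHAC1 and ASNS had at most 19 counts in any control library. The part of depth in their wide intervals or missing test was not tested. The control libraries of DDIT3 varied by 173% where counting would give about 39.7%. With counts of 0, 19 and 0, the 173% is fixed whatever the size of the nonzero count, so it does not measure the excess.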
